A study of Mus musculus with 12 samples.

Results

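R-loop peaks were examined at 10 genes of the p53 pathway, out of 21887 protein-coding genes in the RefSeq table, in a mouse hepatoma cell line and in mouse liver. They are Trp53, Mdm2, Mdm4, Cdkn1a, Ccng1, Bax, Bbc3, Sesn2, Gadd45a and Btg2. The genes were listed by name as well-known members of the pathway, with earlier results of these data known, so their counts are a description and not independent evidence. A peak was assigned to a gene when it overlapped the gene body with 1 kb added on both sides by at least 1 bp. All 10 genes were found in the table, and 24 of 28717 HEPA1-6 peaks and 17 of 14908 liver peaks were assigned to them.

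R-loops are structures in which RNA pairs with a DNA strand and displaces the other strand. They were mapped by immunoprecipitating genomic DNA with the S9.6 antibody, which recognises hybrids of RNA and DNA. HEPA1-6 is an established mouse hepatoma line, labelled wild type and untreated. Liver was from wild-type, untreated C57/Bl6 mice. Age and sex are not given in the sources used here, and the tissue was labelled with hepatocyte as its cell type. The 12 libraries fall into 6 groups of 2 (immunoprecipitate, immunoprecipitate with RNase H1, and input, for each source). RNase H1 digests the RNA of a hybrid. The data analysed here were 1 list of peaks per source, in which, by the peak names, merged immunoprecipitates were compared with input. There is therefore no replicate list, no test between the sources, and no value for single libraries or for RNase H1.

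The p53 protein, encoded by Trp53, is a transcription factor that is kept at a low level by the ubiquitin ligase MDM2 and its partner MDM4. Damage to DNA and other stresses release it from this control, and it then activates genes for cell cycle arrest, DNA repair and apoptosis. Mdm2 is itself a target, which closes a negative feedback loop. In liver the pathway is known for its part in the response to DNA damage and in restraining hepatocyte proliferation and tumour growth. R-loops form behind a transcribing polymerase, mainly where the new RNA is rich in G, and are frequent at CpG-rich promoters and at transcript ends.

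The liver list was checked against marker genes. A peak was held by 2 of 12 hepatocyte markers (Alb and Hnf4a) and by 7 of 8 markers of dividing cells, and these counts were the same in HEPA1-6. No peak was found at Apoa1, Ttr, Cps1, Cyp3a11 or Cyp2e1 in either list, nor at any of 5 endothelial markers. Both lists also held a peak at 2 of 5 Kupffer and blood cell markers (Cd68 and Csf1r), 1 of 5 stellate markers (Dcn), 1 of 4 bile duct markers (Sox9) and 1 of 5 hepatoma or fetal markers (Afp). Markers were named here after their values were seen. The part of cell type in the results below was not tested. The list is called by its label, liver, throughout. Widths had a median of 1091 bp in HEPA1-6 and 881 bp in liver, and scores a median of 21 and 22.

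All 10 genes held a HEPA1-6 peak, and 8 held a liver peak. Ccng1 and Sesn2 were the 2 genes without a liver peak, and no gene held a peak in liver only. Over all protein-coding genes, 42% held a HEPA1-6 peak, 29.7% a liver peak, 27.8% a peak in both lists, 14.2% in HEPA1-6 only and 1.89% in liver only. Among the 13627 protein-coding genes within the range of lengths of the 10 genes (2312 to 44483 bp), the shares were 45.9% and 31.8%. The counts of 10 and 8 did not depend on the flank: with no flank and with 5 kb they were the same. The shares over all protein-coding genes were not computed for these flanks. A peak below the authors' threshold is not listed, so Ccng1 and Sesn2 lack a called peak at an unknown depth.

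**Figure D1:**
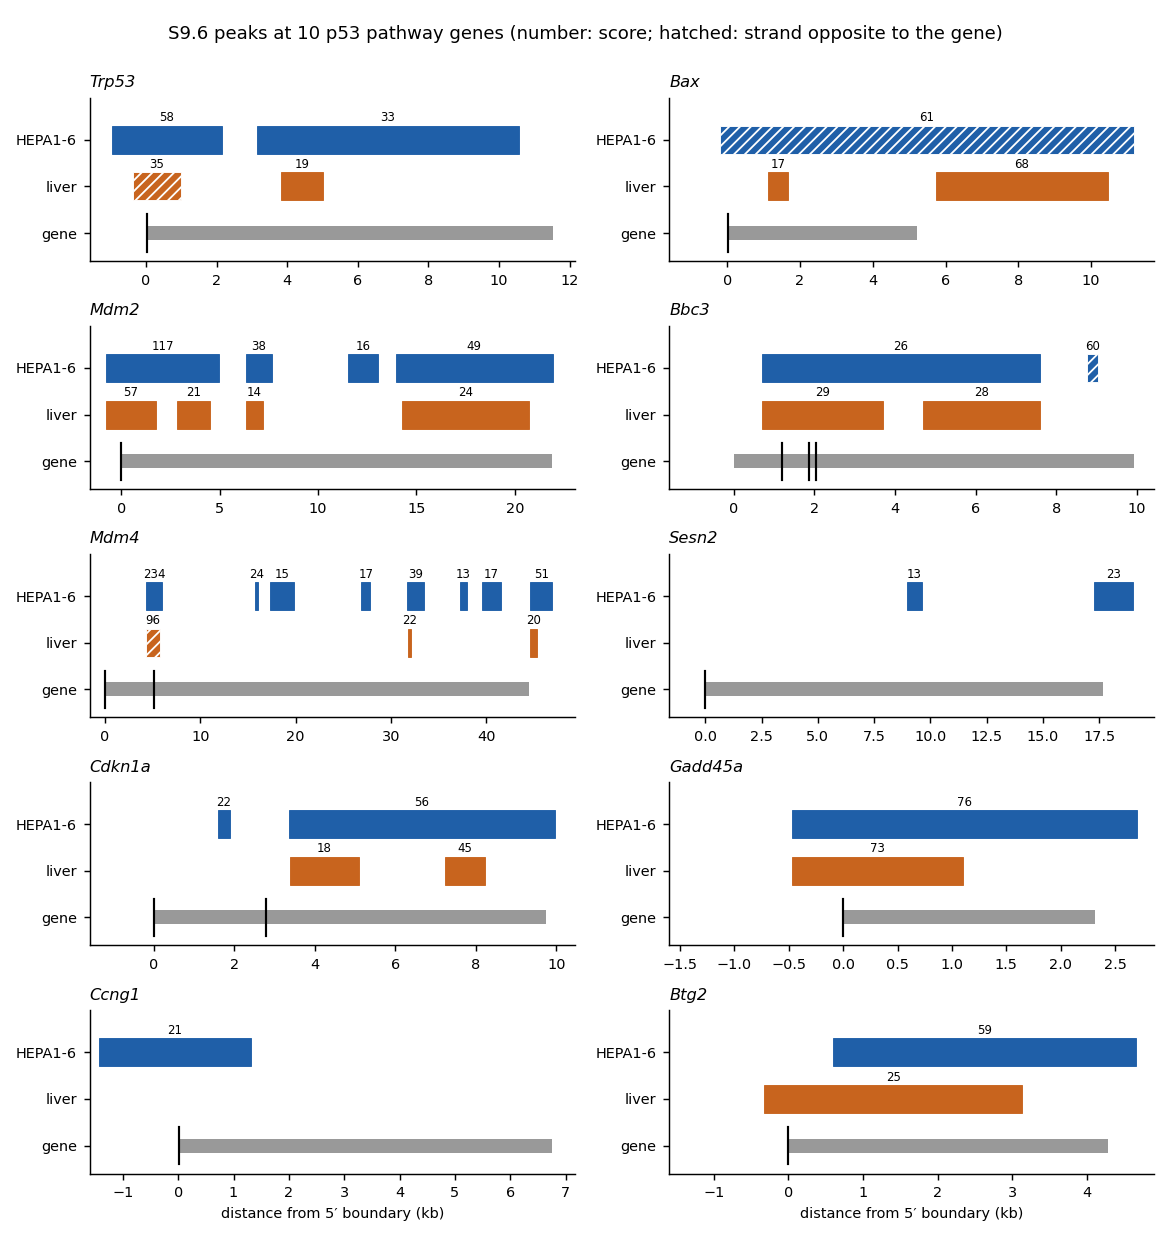
Peaks at the 10 genes, drawn to scale against the distance from the 5′ boundary of each gene (kb, in the direction of transcription). Blue bars are HEPA1-6 peaks, orange bars liver peaks, grey bars gene bodies, black ticks annotated start sites; numbers are scores, and hatching marks a peak on the strand opposite to the gene. Each liver peak overlaps a HEPA1-6 peak, that at Btg2 by 73.4% of its length and the others wholly, and Ccng1 and Sesn2 have no liver peak.

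Promoters are shown first, because the genes differed in whether an annotated start site lay in a peak. RefSeq promoter windows (GRCm38.p6, 250 bases before to 50 after a start) were found for all 10 genes, 14 windows in all. Of these 14 start sites, 9 lay inside a HEPA1-6 peak and 8 inside a liver peak. Over 21263 start sites of protein-coding genes the shares were 18.8% and 11.6%, and these include genes without any peak. All 3 starts of Bbc3 lay under the same peak in each list, and by gene 7 of 10 (HEPA1-6) and 6 of 10 (liver) had a start in a peak. The share by gene over all protein-coding genes was not computed. In each of the windows below, which are printed 5′ to 3′ on the strand of the gene, the start site is the base that follows the first 250. The first set shows both starts of Mdm4, an inhibitor of p53, and then the start of Mdm2, with each CG dinucleotide in capitals. The upper Mdm4 start (chr1:133030538-133030837, minus strand) lay in no peak. The start inside the gene (chr1:133025367-133025666, minus strand) and the Mdm2 start (chr10:117710709-117711008, minus strand) lay in a peak of both lists.
Mdm4 outer start: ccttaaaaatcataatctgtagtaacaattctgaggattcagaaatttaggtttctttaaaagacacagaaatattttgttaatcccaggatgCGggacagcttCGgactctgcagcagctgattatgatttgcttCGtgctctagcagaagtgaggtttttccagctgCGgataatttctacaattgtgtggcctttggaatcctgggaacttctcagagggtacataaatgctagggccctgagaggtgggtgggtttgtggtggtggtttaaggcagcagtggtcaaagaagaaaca
Mdm4 inner start: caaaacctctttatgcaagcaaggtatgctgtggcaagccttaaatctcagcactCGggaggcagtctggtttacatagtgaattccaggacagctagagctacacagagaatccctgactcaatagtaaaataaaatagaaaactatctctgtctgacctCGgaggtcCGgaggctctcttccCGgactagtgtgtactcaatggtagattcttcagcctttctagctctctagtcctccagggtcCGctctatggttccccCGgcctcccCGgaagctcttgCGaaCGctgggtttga
Mdm2 start: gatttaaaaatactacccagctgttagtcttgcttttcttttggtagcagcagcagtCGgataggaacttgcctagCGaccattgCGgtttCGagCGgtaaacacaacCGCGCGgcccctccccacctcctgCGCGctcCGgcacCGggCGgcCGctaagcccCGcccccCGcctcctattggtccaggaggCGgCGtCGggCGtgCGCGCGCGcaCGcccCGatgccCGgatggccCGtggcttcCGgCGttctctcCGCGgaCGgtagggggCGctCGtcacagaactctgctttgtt

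The outer Mdm4 window held 4 CG dinucleotides at a GC content of 43.0%, and the inner window 9 at 49.7%. The Mdm2 window held 35 at 64.7%, and its ratio of observed to expected CG, 1.12, stood at percentile 98.1 of all 21255 windows. Over all windows of protein-coding genes the median GC content was 63.3% where the start lay in a HEPA1-6 peak and 54.7% where it did not. For liver peaks these medians were 63.7% and 55.3%. The 14 windows of the 10 genes had a median of 62.8%, against 56.3% for all windows. Bbc3 gave 3 of these windows, at 76.0, 74.7 and 78.0%, and those at 74.7 and 78.0% overlap each other. A median with equal weight for each gene was not computed. High GC content did not go with a peak in every case. The Sesn2 window, without a peak in either list, had 64.7%, as did the inner Cdkn1a window, while the Trp53 window, in a peak of both lists, had 52.7%. The richest window belonged to Bbc3, at 78.0%, and all 3 Bbc3 starts lay in a peak of both lists. GC skew, the excess of G over C on the strand of the gene as a share of both, ranged from -0.16 at Trp53 to 0.26 at the inner Cdkn1a window.

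**Figure D2:**
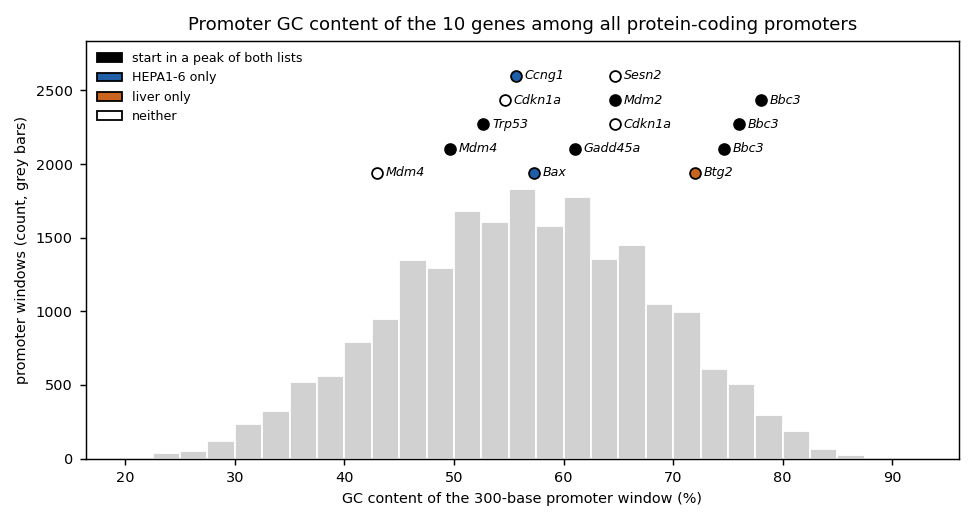
GC content (%) of the 300-base promoter windows of the 10 genes (points, spread vertically for legibility, 14 windows) above the counts of all protein-coding windows (grey bars). Black points are starts in a peak of both lists, blue in HEPA1-6 only, orange in liver only, white in neither; windows in no peak range from 43.0% (Mdm4) to 64.7% (Cdkn1a and Sesn2).

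The second set is shown for the p53 response element, the sequence through which p53 binds its targets, taken as 2 adjacent copies of the 10-base p53 consensus pattern. The pattern is its own reverse complement, so a search of 1 strand covers both. A match with at most 1 mismatch over the 20 bases was present in 14 of 21255 windows (0.0659%), among them those of Cdkn1a (outer start, chr17:29090729-29091028, plus strand) and Ccng1 (chr11:40755237-40755536, minus strand). The matches, in capitals, began 51 bases before the Cdkn1a start and 195 bases before the Ccng1 start.
Cdkn1a outer start: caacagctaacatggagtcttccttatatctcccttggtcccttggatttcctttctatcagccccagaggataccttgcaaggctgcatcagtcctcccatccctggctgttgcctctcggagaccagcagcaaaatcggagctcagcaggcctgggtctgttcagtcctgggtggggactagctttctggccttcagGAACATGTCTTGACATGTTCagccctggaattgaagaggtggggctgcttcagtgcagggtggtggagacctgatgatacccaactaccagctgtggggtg
Ccng1 start: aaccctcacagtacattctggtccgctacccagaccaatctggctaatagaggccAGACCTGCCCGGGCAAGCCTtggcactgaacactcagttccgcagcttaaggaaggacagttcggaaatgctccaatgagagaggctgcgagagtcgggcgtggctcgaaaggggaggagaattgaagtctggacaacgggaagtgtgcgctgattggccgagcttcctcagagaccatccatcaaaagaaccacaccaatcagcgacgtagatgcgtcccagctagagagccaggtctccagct

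The Cdkn1a start with the match lay in no peak, and the nearest peaks began 1596 bp (HEPA1-6) and 3378 bp (liver) downstream. The Ccng1 window lay in a HEPA1-6 peak and in no liver peak. An exact copy of the 10-base pattern was present in 6 of the 14 windows and in 7.38% of all windows. The outer Cdkn1a window held 2 copies. Bbc3, Cdkn1a and Mdm4 each have several of the 14 windows. The genes were listed as well-known members of the p53 pathway, so these matches are a description and not independent evidence. These matches describe letters in a 300-base window and say nothing of binding.

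At Trp53 itself (chr11:69580348-69591873, plus strand), 2 peaks were called in each list. The HEPA1-6 peak over the start (chr11:69579377-69582500, plus strand) had a score of 58, rank 1974 of the list. The liver peak over the start (chr11:69579970-69581346, score 35, rank 2820) lay wholly inside it and carried the minus strand. Both reached into Wrap53, the neighbouring gene on the minus strand, whose 5′ end adjoins that of Trp53. The scores here were well above the list medians of 21 and 22. Further into the gene, a HEPA1-6 peak of 7415 bp (score 33) spanned most of the body, and a liver peak of 1168 bp (score 19) lay within it. Together the peaks covered 83.0% of the Trp53 body in HEPA1-6 and 18.8% in liver.

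Mdm2 (chr10:117688875-117710758, minus strand) held 4 peaks in each list, all on the strand of the gene and none touching another gene. The highest was over the start in both lists, with scores of 117 in HEPA1-6 (chr10:117705795-117711516, percentile 98.2 of the list) and 57 in liver (chr10:117709009-117711516, percentile 93.6). These peaks ended at the same base, 758 bp before the start. In the body, HEPA1-6 peaks scored 38, 16 and 49 in the order of transcription, and liver peaks 21, 14 and 24. The liver peak scoring 21 lay inside the HEPA1-6 peak over the start. Those scoring 14 and 24 lay inside the HEPA1-6 peaks scoring 38 and 49. Every liver peak lay wholly inside a HEPA1-6 peak, and the HEPA1-6 peak scoring 16 had no liver counterpart. The peak nearest to the 3′ end was long in both lists, at 7941 bp and 6439 bp. Coverage of the body was 71.8% in HEPA1-6 and 49.3% in liver.

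Mdm4 (chr1:132986105-133030587, minus strand), the longest of the 10 genes, held 8 HEPA1-6 and 3 liver peaks. Its highest peaks were the highest of all 10 genes in each list. The HEPA1-6 peak (chr1:133024563-133026324, minus strand) scored 234, rank 138 of 28717, and the liver peak (chr1:133024813-133026324, plus strand) scored 96, rank 337 of 14908. Both lay over the inner start, ended at the same base, and also overlapped the pseudogene Gm29257. The other 7 HEPA1-6 peaks scored from 13 to 51, and the other liver peaks 20 and 22. A pair at the 3′ end (HEPA1-6 score 51, liver score 20) lay wholly past the gene, beginning 75 bp beyond its boundary. The body was covered to 22.5% in HEPA1-6 and 4.00% in liver. Just outside the 1 kb window were a liver peak 1972 bp past Mdm4 (score 24) and a HEPA1-6 peak 1310 bp past Mdm2 (score 22), neither counted here.

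Among the targets for cell cycle arrest, Cdkn1a (chr17:29090979-29100722, plus strand) encodes p21, an inhibitor of cyclin-dependent kinases. Its HEPA1-6 peaks scored 22 and 56, and its liver peaks 18 and 45. The HEPA1-6 peak scoring 56 (chr17:29094340-29100940) ran from 571 bp past the inner start to beyond the 3′ end, and both liver peaks lay inside it. The higher liver peak (chr17:29098202-29099205, percentile 89.1) lay towards the 3′ end of the gene. The HEPA1-6 peak scoring 22 (chr17:29092575-29092856) was 282 bp wide, lay between both starts and had no liver counterpart. Neither start lay in a peak, and coverage of the body was 68.4% and 28.0%.

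Btg2 (chr1:134074865-134079155, minus strand), an antiproliferative gene of the BTG family, held 1 peak in each list. The HEPA1-6 peak (chr1:134074495-134078557, score 59) ended 598 bp downstream of the start and ran past the 3′ end. The liver peak (chr1:134076023-134079478, score 25) covered the start. It was the only liver peak of the 17 that did not lie wholly inside a HEPA1-6 peak, although 73.4% of it overlapped one. Ccng1 (chr11:40748552-40755309, minus strand), which encodes cyclin G1, held 1 HEPA1-6 peak over its start (chr11:40753995-40756746, score 21, percentile 51.6). The nearest liver peak was 21861 bp from the start.

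Of the apoptosis genes, Bax (chr7:45461695-45466903, minus strand) encodes a protein that permeabilises the outer mitochondrial membrane. A HEPA1-6 peak of 11368 bp (chr7:45455727-45467094, score 61) covered all of its body, but also overlapped Ftl1, which encodes ferritin light chain, and Gys1, a glycogen synthase gene. It carried the plus strand, opposite to Bax. The higher of the liver peaks (chr7:45456448-45461175, score 68) overlapped Ftl1 and Gys1, and its nearest base was 520 bp past the 3′ end of Bax. The liver peak inside the Bax body (chr7:45465238-45465784) scored 17, percentile 28.6. The score of 68 is therefore that of a peak with no base in Bax. Coverage of the Bax body was 100% in HEPA1-6 and 10.5% in liver.

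Bbc3 (chr7:16308398-16318334, plus strand) encodes PUMA, an inducer of apoptosis of the BH3-only class. Its HEPA1-6 peak of 6892 bp (chr7:16309097-16315988, score 26) was matched by 2 liver peaks, of which the first began at the same base (score 29) and the second ended at the same base (score 28). Here the percentiles were 65.5 in HEPA1-6 and 70.8 and 68.7 in liver. A further HEPA1-6 peak near the 3′ end (chr7:16317165-16317423) was 259 bp wide, scored 60, and was on the minus strand, opposite to Bbc3, with no other annotated gene under it. It had no liver counterpart. Among the HEPA1-6 peaks of the 10 genes without a liver counterpart it had the highest score, the others lying between 13 and 24.

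Gadd45a (chr6:67035096-67037407, minus strand), a stress sensor in DNA repair and growth arrest, was the shortest gene. Its HEPA1-6 peak (chr6:67034706-67037878, score 76) covered the whole gene, and its liver peak (chr6:67036303-67037878, score 73) covered the start and 47.8% of the body. Both began 471 bp before the start, at the same base, and stood at percentiles 95.9 and 96.2. The same interval overlapped the lncRNA gene E230016M11Rik on the plus strand. Sesn2 (chr4:132492804-132510456, minus strand) encodes sestrin 2, which restrains mTORC1 signalling under stress. It held HEPA1-6 peaks of score 13 (chr4:132500844-132501481) and 23 (chr4:132491453-132493180), in the body and at the 3′ end. The start was 8975 bp from the nearest HEPA1-6 peak, and only 5.75% of the body was covered, the lowest value of the 10 genes in HEPA1-6.

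**Figure D3:**
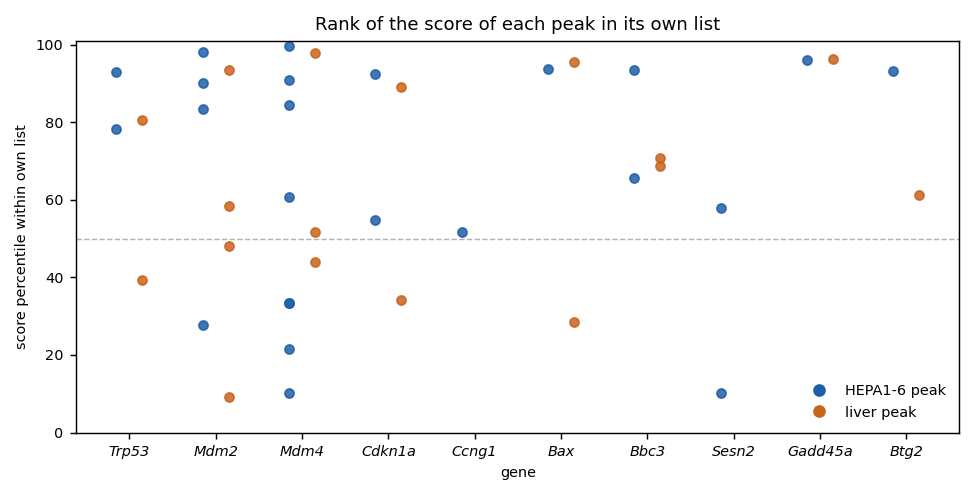
Percentile of the score of each peak within its own list (vertical axis), by gene; each point is 1 peak, blue for HEPA1-6 (24 peaks) and orange for liver (17 peaks), and the dashed line marks the middle of a list. The highest points are those of Mdm4, at 99.5 and 97.7, and Sesn2 and Ccng1 have no HEPA1-6 peak above 57.8.

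The scale of the score is not given in the sources used here, so ranks within a list are used for comparison. Over the 24 HEPA1-6 peaks the score ranged from 13 to 234 with a median of 35.5, and 17 of them exceeded the list median of 21. Over the 17 liver peaks it ranged from 14 to 96 with a median of 25, and 10 exceeded the list median of 22. The best peak of a gene had a median percentile of 93.4 over 10 genes in HEPA1-6 and 91.3 over the 8 genes with a peak in liver. For Bax in liver the best peak, at percentile 95.6, had no base in the gene, and the peak inside the body stood at 28.6. The same median over all genes with a peak was not computed. A gene with several peaks has more chances of a high one. HEPA1-6 peaks at these genes were wide, with a median of 2186 bp (259 to 11368 bp), and liver peaks had a median of 1576 bp (269 to 6439 bp). Ranked within 5 classes of width, the median percentiles of the best peaks were 81.0 and 88.3.

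**Figure D4:**
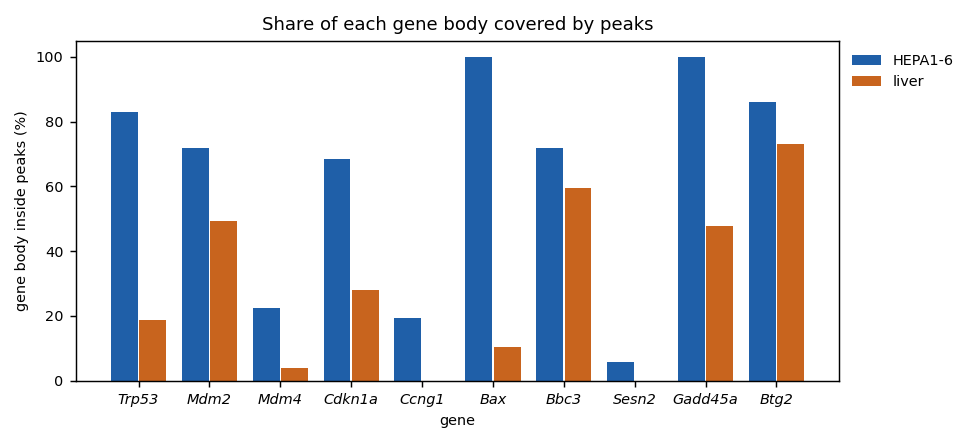
Share of each gene body inside peaks (%), by gene, with a bar for HEPA1-6 (blue) and for liver (orange). The HEPA1-6 bar is the higher in all 10 genes, from 5.75% at Sesn2 to 100% at Bax and Gadd45a; liver ranges from 0% to 73.0% (Btg2).

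The share of the gene body inside peaks was higher in HEPA1-6 at all 10 genes. At Ccng1 and Sesn2 the liver share was 0% because they held no liver peak. How many of all protein-coding genes had a higher share in HEPA1-6 was not counted. Of all protein-coding genes, 14.2% held a peak in HEPA1-6 only and 1.89% in liver only. Over all 10 bodies together, 46.8% of bases lay in HEPA1-6 peaks and 21.0% in liver peaks. Over the bodies of all protein-coding genes these shares were 4.59% and 1.51%, so HEPA1-6 was the higher there too. These pooled shares are weighted by long genes and include genes without a peak. Over the genes with a peak, the median share of the body covered was 15.4% in HEPA1-6 (9191 genes) and 5.84% in liver (6491 genes). Over the 10 genes the medians were 71.9% and 23.4%, the latter with Ccng1 and Sesn2 included. The 10 genes had a median length of 9840.5 bp, against 17169 bp for all protein-coding genes, and these medians were not matched for length. The whole HEPA1-6 list held more and wider peaks, and the depth behind either list is unknown.

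Of the 24 HEPA1-6 peaks, 13 (54.2%) overlapped a liver peak, against 31.8% of all HEPA1-6 peaks. All 17 liver peaks overlapped a HEPA1-6 peak, and 16 lay wholly inside one, against 75.9% and 66.1% of all liver peaks. In HEPA1-6, peaks at these genes had a median width of 2186 bp, against 1091 bp for the whole list. In liver these medians were 1576 and 881 bp. The shares were not matched for width or score. Since the HEPA1-6 peaks were wider than the liver peaks, an overlap of 50% of both peaks left 4 in either list. The share of all peaks under that rule was not computed. The 13 shared HEPA1-6 peaks had a median score of 56 (26 to 234) and a median width of 4063 bp. The 11 unshared ones had a median score of 17 (13 to 60) and a median width of 917 bp, and 5 of them lay in Mdm4. Among the 17 overlapping pairs, 4 were on opposite strands (Trp53, Mdm4 and both pairs at Bax), which is 23.5%, against 14.04% of all such pairs with a strand. In each of these 4 pairs the HEPA1-6 peak also touched another gene, but so did that of Gadd45a, whose pair was on the same strand. How a strand was given to a peak is not given in the sources used here.

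Peaks at the 5′ boundary (within 1 kb on either side) were found at 7 genes in HEPA1-6 (Trp53, Mdm2, Ccng1, Bax, Bbc3, Gadd45a and Btg2). In liver the same was found at 5 (Trp53, Mdm2, Bbc3, Gadd45a and Btg2). At the 3′ boundary there were 9 genes in HEPA1-6, all but Ccng1, and 2 in liver, Mdm4 and Bax. Both of these liver peaks, and the HEPA1-6 peak at the 3′ boundary of Mdm4, lay wholly past the gene. Over the 17492 protein-coding genes with a listed strand, 24.5% (HEPA1-6) and 16.7% (liver) had a peak at the 5′ boundary and 23.8% and 11.8% at the 3′ boundary. The liver count at the 3′ boundary rose to 6 genes within 2 kb and fell to 1 within 500 bp. When the midpoint of the peak had to lie within the window, the HEPA1-6 counts were 2 at either boundary and the liver counts 3 and 1. The shares over all protein-coding genes were not computed for these other settings.

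Edges of peaks often coincided between the lists. Of the 17 pairs at the 10 genes, 7 (41.2%) had an identical start or end, against 46.1% of 11455 pairs in all. At the 10 genes, 1 edge fell inside a promoter window of its own gene, that of the HEPA1-6 peak over Bax at position 45467094. The surrounding 30 bases (chr7:45467079-45467108, plus strand) are shown with the HindIII recognition sequence in capitals, because the edge falls within it. Over promoter windows as a whole, 53.7% of HEPA1-6 edges and 41.4% of liver edges lay within 10 bp of a restriction enzyme recognition sequence. Those of 5 enzymes were searched, and 2.92% of positions were as close. An edge in overlapping windows was counted in each.
Bax peak edge: ccgcaagttcaAAGCTTgcctgggatatgc

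The other genes of the pathway came from a list of 68, all of them found in the table. Of these, 56 held a HEPA1-6 peak (82.4%) and 41 a liver peak (60.3%), and all 41 also held a HEPA1-6 peak, beside 42% and 29.7% of all protein-coding genes. This list too was written with earlier results of these data known. Among 18 sensors and regulators of p53, 15 and 11 held a peak, and the kinases Atr, Chek1 and Chek2 held none in either list. For 14 genes classed here under arrest and feedback the counts were 12 and 8, with none at Ccng2 or Rprm. Whether each gene of this class is a target of p53 was not examined. Of 17 apoptosis genes, 14 and 12 held a peak, with none at Fas, Casp9 or Eda2r. Of 17 repair and metabolism genes, 15 and 10 held a peak, with none at Sesn1 or Steap3. Neither Trp63 nor Trp73, the paralogues of Trp53, held a peak. The genes without a peak were named after their values were seen.

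**Figure D5:**
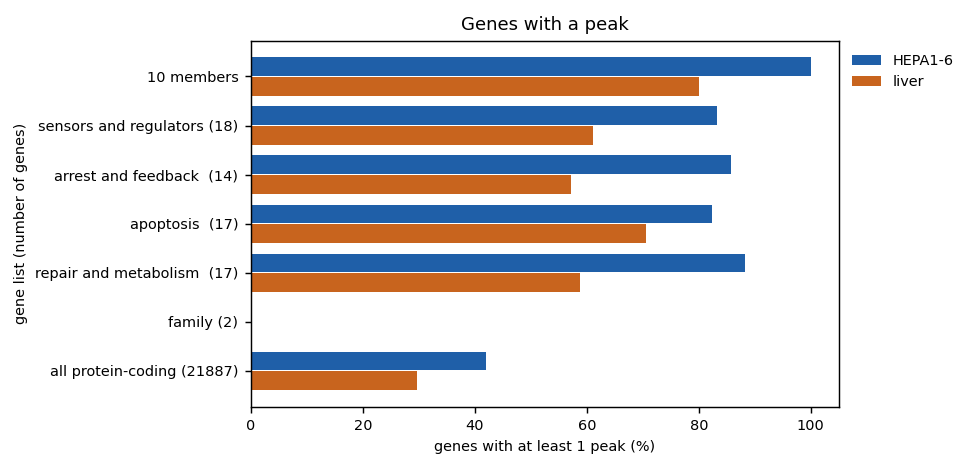
Share of genes with at least 1 peak (%, horizontal axis) for the 10 genes, for 5 classes of other p53 pathway genes and for all protein-coding genes, with the number of genes in brackets; blue is HEPA1-6 and orange liver. The classes other than the family lie between 82.4% and 88.2% in HEPA1-6 and between 57.1% and 70.6% in liver, and both family genes are at 0.

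The highest-scoring peak of the 68 genes in HEPA1-6 was at Mcl1, which encodes an antiapoptotic protein of the BCL-2 family (chr3:95658026-95663025, score 273, percentile 99.6). Ddit4, which encodes the mTORC1 inhibitor REDD1, followed with 251 (chr10:59949705-59952617). In liver the order was Ddit4 (chr10:59949775-59952487, score 108) and Mcl1 (chr3:95658248-95663022, score 107), both at percentile 98.2. Next in HEPA1-6 were Pidd1 (117), Btg1 and Phlda3 (113 each), and next in liver Plk2 (102), Cdkn1b (88) and Pidd1 (68). Plk2 also scored 113 in HEPA1-6. The Pidd1 peaks were on the strand opposite to the gene and also covered Rplp2, a ribosomal protein gene, and Snora52. Sequences of the peaks themselves were not analysed here.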

How the data were processed

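Peaks were deposited by the authors as 1 list per source, each peak with chromosome, start, end, name, score and strand. Per the submitters' processing notes, the build was mm10 and the tools included CASAVA 1.8.2, cutadapt, Bowtie2, bedtools, SAMtools and MACS2, with no role or settings given. Per the labels' protocols, sonicated DNA was amplified with 10 PCR cycles for immunoprecipitates and 4 for inputs, and read as pairs of 75 bp. By their deposited names, peaks compare merged immunoprecipitates with input. The deposited score is a whole number from 10 upwards of unstated scale and was used only within its list, as a percentile with ties averaged. Depth is unknown.

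Coordinates are 1-based. Gene boundaries, strands and start sites came from RefSeq tables of GRCm38.p6, which give no exons. Intervals were intersected with Python 3.11.15, numpy 2.4.6 and pandas 2.3.3. The functions were tested on simulated intervals, where counts at 1200 of 1200 genes matched a direct count. No test between sources was possible with 1 list each. All 10 genes were described whatever their values. Other pathway genes were named by the 5 highest scores per list. Members and lists were chosen with earlier results of these data known.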

Additional observations from a re-analysis of the deposited data

How the results depend on the processing

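Across 52 alternatives for 16 results, 41 values stayed within 1.5 times a reported count or within the interval of a reported share or percentile, and 11 did not. For a percentile this was a Wilson interval counted over all peaks of the list. It does not measure the spread over the 10 or 8 genes, so for percentiles the division is a convention only. The counts of genes with a peak stayed at 10 (HEPA1-6) and 8 (liver) with every flank, with midpoints, and with the higher-scoring 50% of each list; they were 8 and 7 when peaks touching another gene body were left out. The 56 and 41 pathway genes were lowest at 42 and 30. Shares over all protein-coding genes were not computed for any alternative, so these counts have no background beside them. An overlap of 50% of both peaks left 4 HEPA1-6 and 4 liver peaks shared, because the HEPA1-6 peaks are wider. In the higher-scoring 50%, 11 of 11 liver peaks were shared, fewer by construction. With midpoints, which take in fewer peaks, the 5′ boundary counts were 2 (HEPA1-6) and 3 (liver), and the 3′ counts 2 and 1. The liver 3′ count was 6 with a 2 kb window and 1 with 500 bp. Within width classes the median percentiles of the best peaks were 81.0 and 88.3. No paired analysis was possible because the data are 1 merged list per source, and no replicate could be left out. The unknown depth limits each absence of a peak.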

Other observations

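Many peak edges of both lists lay close to restriction sites. The question was asked after the data had been seen, prompted by identical edges at Mdm2, Mdm4, Bbc3 and Gadd45a. The sites searched were those of HindIII (AAGCTT), SspI (AATATT), EcoRI (GAATTC), BsrGI (TGTACA) and XbaI (TCTAGA), enzymes commonly used to cut genomic DNA before S9.6 immunoprecipitation. Each site is its own reverse complement, so both strands were covered. In 32805 RefSeq promoter windows of 300 bases, 942 HEPA1-6 edges were found, of which 506 (53.7%, 95% Wilson interval 50.5 to 56.9%) were within 10 bp of such a site. In liver, 372 of 899 edges were (41.4%, 38.2 to 44.6%). Of all positions in these windows, 2.92% were as close to a site. Within 3 bp the shares were 53.5% and 41.7%, against 1.36% of positions. Some windows overlap, and an edge in several windows was counted in each, so the 942 and 899 edges may not all be distinct. The intervals treat them as independent and cover counting error only. Whether these enzymes were used is not given in the sources used here. Edges outside promoter windows, which include most of those at the 10 genes, were not analysed here.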
